A study of Mus musculus with 3 samples.

Results

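The 39 genes described here are 16 genes of DNA replication, called the S list, and 23 genes of mitosis, called the mitotic list. They were chosen by name, and all 39 were present among the 32285 genes counted. Their transcripts were compared in epithelial, stromal and macrophage cells of 3 single-cell RNA libraries of mouse cornea and limbus, the rim of tissue that borders the cornea. Each group was 1 library, and every sample carried the genotype label wt. The losartan library came from tissue injured with nitrogen mustard (NM), a DNA alkylating agent, and treated with losartan, a blocker of the angiotensin II type 1 receptor. The saline library came from NM-injured tissue treated with saline, and the uninjured library from tissue with no injury. The series text counts 1 animal per group, and the dissected corneas of a sample were digested in a single tube. Strain, age, sex, time after injury and the dose and route of losartan are not given in the sources used here. With 1 library per group no test of a condition was possible. Every interval below is an exact 95% interval that covers counting error only and not the spread between animals.

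Before a cell divides it copies its DNA in S phase and then, after a gap, separates the copies in mitosis. Replication genes are switched on at the border of G1 and S phase, largely through E2F factors, and mitotic genes follow in G2 phase through the MuvB complex with B-Myb and FoxM1, which act at a promoter element called the cell cycle homology region (CHR), often beside CCAAT boxes bound by NF-Y. In the cornea, division is known to take place in the basal layer and at the limbus, and alkylating agents such as nitrogen mustard crosslink DNA and disturb its replication.

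The promoters of the 2 lists show these elements and are given here because the lists are compared throughout. RefSeq promoter sequences on GRCm38.p6, from 250 bases before to 50 bases after a listed transcription start, were found for 14 of the 16 S genes and 19 of the 23 mitotic genes. Both strands were searched. An E2F core was counted if TTCCCGC was found in the promoter, or if the letters TTGGCGC were found there, or if a promoter held TTCGCGC instead, or else if it contained the run TTGCCGC anywhere. The CHR core was TTTGAA, and the box of NF-Y was searched as CCAAT. Hits of different motifs may overlap. An E2F core was present in 9 S promoters (64.3%), 4 mitotic promoters (21.1%) and 10.9% of the 27025 genes with a listed promoter. The CHR core was present in 2 S promoters (14.3%), 14 mitotic promoters (73.7%) and 20.2% of all genes. CCAAT was present in 11 S promoters (78.6%), 17 mitotic promoters (89.5%) and 41.1% of all genes. The CHR core and CCAAT stood in the same promoter for 2 S genes, 14 mitotic genes and 8.97% of all genes. A match describes these letters and is neither a proven site nor a cause. In the 8 windows below, of 120 bases each (90 before the start and 30 from it), read 5′ to 3′ on the strand of the gene, capitals mark E2F cores, CHR cores and CCAAT boxes on either strand. The first 3 are S genes with an E2F core and the other 5 are mitotic genes with the CHR core and CCAAT. Mcm6 lies on the minus strand at chr1:128359676-128359795, Rrm1 on the plus strand at chr7:102441605-102441724 and Uhrf1 on the plus strand at chr17:56303247-56303366. Ccnb2 lies on the minus strand at chr9:70421525-70421644, Cdc20 on the minus strand at chr4:118437314-118437433 and Cdk1 on the minus strand at chr10:69352883-69353002. Kif23 lies on the minus strand at chr9:61946770-61946889 and Ube2c on the plus strand at chr2:164769839-164769958. In Mcm6, 2 E2F cores overlap on opposite strands.
Mcm6: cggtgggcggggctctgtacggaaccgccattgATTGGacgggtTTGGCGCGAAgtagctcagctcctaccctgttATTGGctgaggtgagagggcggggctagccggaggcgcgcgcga
Rrm1: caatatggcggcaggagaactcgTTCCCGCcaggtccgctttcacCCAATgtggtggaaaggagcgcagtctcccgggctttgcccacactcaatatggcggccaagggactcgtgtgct
Uhrf1: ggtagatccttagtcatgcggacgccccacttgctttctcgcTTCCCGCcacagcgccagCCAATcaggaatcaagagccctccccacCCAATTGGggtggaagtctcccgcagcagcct
Ccnb2: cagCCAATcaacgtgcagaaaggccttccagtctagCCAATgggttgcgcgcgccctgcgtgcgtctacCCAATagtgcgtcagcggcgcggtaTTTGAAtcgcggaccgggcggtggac
Cdc20: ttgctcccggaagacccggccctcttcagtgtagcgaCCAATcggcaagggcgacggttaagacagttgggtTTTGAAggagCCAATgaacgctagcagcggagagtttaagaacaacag
Cdk1: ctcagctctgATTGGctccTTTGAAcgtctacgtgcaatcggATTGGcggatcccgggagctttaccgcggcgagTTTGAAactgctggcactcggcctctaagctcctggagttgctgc
Kif23: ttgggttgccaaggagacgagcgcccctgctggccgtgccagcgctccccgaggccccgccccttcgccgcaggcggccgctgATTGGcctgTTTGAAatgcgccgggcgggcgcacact
Ube2c: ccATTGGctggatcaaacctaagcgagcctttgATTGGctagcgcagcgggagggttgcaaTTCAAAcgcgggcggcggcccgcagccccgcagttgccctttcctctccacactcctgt

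After filtering, 4919 losartan, 5800 saline and 11233 uninjured cells were clustered without any of these genes among the genes used, and clusters were named from marker lists. Epithelial-like cells numbered 1923 in the losartan, 1190 in the saline and 9664 in the uninjured library, with median depths of 29173, 15882 and 12898 unique transcript counts (UMIs) for losartan, saline and uninjured. All 10 epithelial markers, among them Krt5, Krt14 and Pax6, reached 10 CPM, UMIs of a gene per 1000000 UMIs of the summed cells, in each library's epithelial sum. Stromal-like cells numbered 726, 693 and 424 in the same order of libraries, and macrophage-like cells 396 in losartan and 667 in saline, with 11 in uninjured, too few to compare. The libraries stand apart in makeup. In the epithelial sums, the 7 superficial markers held 14316 CPM in losartan, 3884 CPM in saline and 54856 CPM in uninjured. Of these, 6 in losartan, 3 in saline and 7 in uninjured reached 10 CPM. The 9 conjunctival and secretory markers held 2441, 7095 and 2031 CPM in the same libraries. The 5 limbal ones held 4221, 6464 and 1806 CPM. The 7 wound markers were nearly level between losartan, at 18203 CPM, and saline, at 18696 CPM. The injured libraries' epithelial cells lay in clusters 3, 4 and 15 and the uninjured ones in clusters 0, 2, 6, 7, 10 and 12, so the injured and uninjured epithelium is compared between different clusters. The injured epithelial sums also held more stromal and macrophage marker transcripts, with 1564 and 1059 CPM in losartan and 1801 and 1876 CPM in saline, against 152 and 402 CPM in uninjured. Of the 13 stromal markers, 4 in losartan, 2 in saline and 3 in uninjured reached 10 CPM there. Of the 15 macrophage markers, 3 did so in each library. Cells over 100000 UMIs numbered 27 in losartan, 149 in saline and 0 in uninjured epithelium. Clusters left without a name held 10.7% of losartan, 22.9% of saline and 8.28% of uninjured cells. Between 7 and 28 barcodes were shared by each pair of libraries.

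In the epithelium 7 S genes were higher in saline-treated injured than in uninjured tissue, and the summed level of both lists was lower with losartan than with saline. Summed over the list, S transcripts made up 486 CPM (481 to 492) of the losartan, 675 CPM (668 to 682) of the saline and 421 CPM (418 to 424) of the uninjured epithelial sum. A gene was called higher or lower when it differed by at least 1.5-fold after 5 CPM was added to both values, and it counted as measured when it reached 10 CPM in either library. In saline against uninjured epithelium 7 of the 14 measured S genes were higher and 0 lower, where 19.8% of all measured genes were higher and 17.5% lower. The median log2 ratio of the 14 was 0.58, beside 0.02 over all genes. Losartan epithelium set against saline epithelium had 0 S genes higher and 1 lower, with a background of 2.16% higher and 5.67% lower, a list median of -0.43 and an all-gene median of -0.07. All 14 ratios were below 0 on the log2 scale. Losartan against uninjured epithelium had 1 of 13 measured S genes higher and 0 lower, with a background of 15.4% higher and 19.5% lower and a list median of 0.16. Saline epithelium had the highest level of the 3 libraries for 15 of the 16 S genes, the exception being Slbp.

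**Figure D1:**
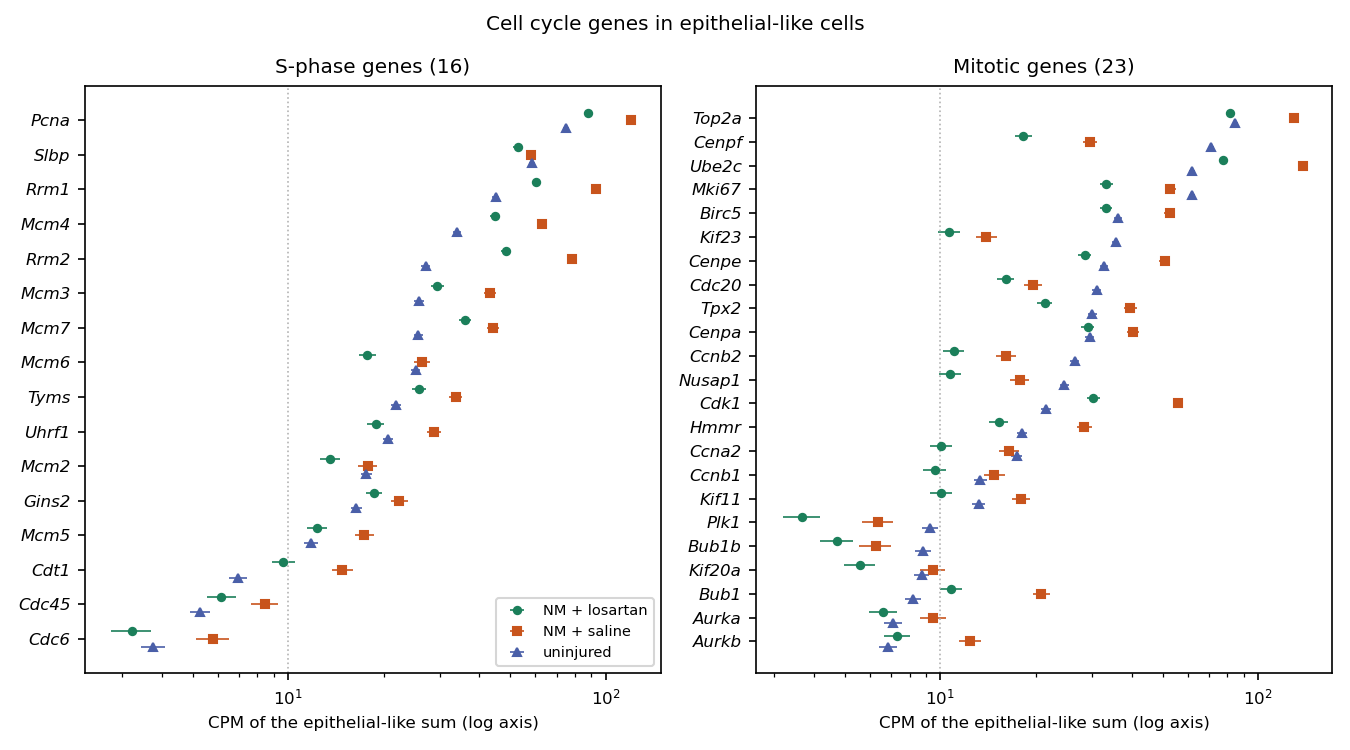
Level of each S gene (left) and mitotic gene (right) in CPM of the summed epithelial-like cells on a log axis, 1 point per library with its 95% counting interval; the dotted line is the 10 CPM minimum. Saline squares lie to the right of losartan circles for every gene, whereas the uninjured triangles lie far right of both for Cenpf (71.2 CPM) and Kif23 (35.6 CPM).

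Ribonucleotide reductase, which makes the deoxynucleotides for DNA synthesis, gave the largest difference of the S list. Rrm2, its small subunit, stood at 48.5 CPM in losartan, 78.0 CPM in saline and 27.1 CPM in uninjured epithelium. It was 2.88-fold higher in saline than in uninjured epithelium (2.75 to 3.01), 0.621 of saline in losartan (0.591 to 0.652) and 1.79-fold higher in losartan than in uninjured (1.70 to 1.88). It was the S gene called in all 3 comparisons. Rrm1, the large subunit, stood at 60.5 CPM in losartan, 93.1 CPM in saline and 45.1 CPM in uninjured epithelium, 2.07-fold higher in saline than in uninjured (1.99 to 2.15). Tyms, thymidylate synthase, which supplies thymidylate, reached 25.9, 33.7 and 21.9 CPM in losartan, saline and uninjured epithelium and stayed within the 1.5-fold on the adjusted scale.

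The MCM genes, which encode the subunits of the replicative helicase, differed among themselves. Mcm4 had 44.7 CPM in losartan, 62.9 CPM in saline and 34.1 CPM in uninjured epithelium, 1.85-fold higher in saline than in uninjured (1.76 to 1.93). Mcm7 had 36.0, 44.1 and 25.7 CPM in losartan, saline and uninjured, and Mcm3 had 29.5, 43.2 and 25.8 CPM in the same libraries. These 3 subunits were called higher in saline than in uninjured epithelium. Mcm6 stood at 17.8 CPM in losartan, 26.4 CPM in saline and 25.2 CPM in uninjured epithelium, with a saline-to-uninjured ratio of 1.05 (0.980 to 1.12). Mcm2 at 13.6, 17.8 and 17.6 CPM had a saline-to-uninjured ratio of 1.01 (0.933 to 1.09), and Mcm5 stood at 12.3, 17.4 and 11.8 CPM in losartan, saline and uninjured. Transcripts of the subunits of the hexamer thus differed in their ratio, from 1.01 for Mcm2 to 1.85 for Mcm4.

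Pcna, the sliding clamp of the replication fork, was the most abundant S gene, with 87.9 CPM in losartan, 120 CPM in saline and 75.0 CPM in uninjured epithelium, 1.6-fold higher in saline than in uninjured (1.55 to 1.65). Among the factors that load and start the helicase, Cdt1 had 9.64 CPM in losartan, 14.8 CPM in saline and 6.97 CPM in uninjured epithelium and was called higher in saline than in uninjured, 2.13-fold (1.93 to 2.35). Gins2, a subunit of the GINS complex that joins the helicase, had 18.6, 22.4 and 16.4 CPM in losartan, saline and uninjured. Cdc45, its partner, peaked at 8.46 CPM and Cdc6, which loads the helicase with Cdt1, at 5.80 CPM, both in saline, so neither was measured. Uhrf1, which directs maintenance DNA methylation to newly copied DNA, had 18.9 CPM in losartan, 28.8 CPM in saline and 20.7 CPM in uninjured epithelium. Slbp, which binds the stem-loop of histone mRNA, was nearly level at 53.1, 58.1 and 58.5 CPM in losartan, saline and uninjured, with a saline-to-uninjured ratio of 0.993 (0.95 to 1.04). In neutrophil-like cells, which do not divide, Slbp was higher, at 77.6 CPM in losartan and 80.1 CPM in saline. Its level is therefore not read as a measure of S phase.

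The mitotic list had calls in both directions between saline and uninjured epithelium. Its sum was 485 CPM (479 to 490) in losartan, 799 CPM (791 to 807) in saline and 658 CPM (654 to 663) in uninjured epithelium. In saline against uninjured epithelium 3 of 19 measured mitotic genes were higher and 2 lower, shares of 15.8% and 10.5%, both below the background of 19.8% and 17.5%. The list median there was 0.35. Losartan against saline gave 0 higher and 10 lower of 19, a list median of -0.59, and all 19 ratios below 0, beside the background of 5.67% lower. Losartan against uninjured gave 0 higher and 6 lower (33.3%) of 18 with a list median of -0.30, beside a background of 15.4% higher and 19.5% lower. The count of 10 rests in large part on very deep cells: without the cells over 100000 UMIs it was 2 and the median -0.41, and with median-of-ratios scaling it was 6.

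Mitotic genes called higher in saline than in uninjured epithelium were the kinase Cdk1, which drives entry into mitosis, the ubiquitin-conjugating enzyme Ube2c and the checkpoint kinase Bub1. Cdk1 stood at 30.3 CPM in losartan, 56.0 CPM in saline and 21.4 CPM in uninjured epithelium, 2.61-fold higher in saline than in uninjured (2.48 to 2.75) and 0.540 of saline in losartan (0.508 to 0.574). Ube2c, the enzyme that works with the anaphase-promoting complex, stood at 77.3 CPM in losartan, 138 CPM in saline and 62.0 CPM in uninjured epithelium, 2.22-fold higher in saline than in uninjured (2.15 to 2.30) and 0.560 of saline in losartan (0.540 to 0.582). Bub1 had 10.8, 20.8 and 8.21 CPM in losartan, saline and uninjured. These 3 genes were also among the 10 called lower in losartan than in saline.

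Cenpf and Kif23 ran the other way and were called lower in saline than in uninjured epithelium. Cenpf, a large kinetochore protein, had 18.2 CPM in losartan, 29.6 CPM in saline and 71.2 CPM in uninjured epithelium, so that saline held 0.416 of uninjured (0.393 to 0.440) and losartan 0.256 (0.240 to 0.273). It supplied 3.76% of the mitotic list's UMIs in losartan, 3.71% in saline and 10.8% in uninjured epithelium. Kif23, a kinesin of the central spindle, had 10.7 CPM in losartan, 14.0 CPM in saline and 35.6 CPM in uninjured epithelium, a saline-to-uninjured ratio of 0.392 (0.361 to 0.425). Kif23 was also present where mitotic transcripts were scarce. In uninjured cluster 10 it made up 19.8 of 49.7 mitotic CPM, and in neutrophil-like cells, which do not divide, it reached 62.2 CPM in losartan and 19.2 CPM in saline. Its level is therefore not read as a measure of mitosis.

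Several other mitotic genes were highest in uninjured epithelium. Ccnb2, a B-type cyclin that partners Cdk1, had 11 CPM in losartan, 16.1 CPM in saline and 26.5 CPM in uninjured epithelium, and losartan held 0.416 of uninjured (0.382 to 0.452). Cdc20, the activator of the anaphase-promoting complex, had 16.1, 19.6 and 31.0 CPM in losartan, saline and uninjured, and Nusap1, a spindle microtubule protein, 10.7, 17.8 and 24.5 CPM. Mki67, the proliferation marker that coats mitotic chromosomes, had 33.3 CPM in losartan, 53.0 CPM in saline and 61.9 CPM in uninjured epithelium. These 4 genes were called lower in losartan than in uninjured, with Cenpf and Kif23, and none of the 4 was called in saline against uninjured. Ccna2, cyclin A2, had 10.1, 16.4 and 17.4 CPM, and Ccnb1, the other B-type cyclin, 9.63, 14.8 and 13.3 CPM in losartan, saline and uninjured. Mki67 and Cdk1 thus ranked the libraries differently, Cdk1 lowest and Mki67 highest in uninjured epithelium.

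The other mitotic genes were highest in saline or not measured. Top2a, the topoisomerase that untangles sister chromosomes, had 81.6 CPM in losartan, 129 CPM in saline and 84.8 CPM in uninjured epithelium, with losartan at 0.630 of saline (0.607 to 0.655). Birc5, or survivin, of the chromosomal passenger complex, had 33.2, 52.6 and 36.2 CPM, and Cenpe, a kinetochore kinesin, 28.5, 50.8 and 32.7 CPM in losartan, saline and uninjured. Tpx2, the activator of Aurora A, had 21.3, 39.6 and 30.1 CPM, Hmmr, a spindle-associated protein, 15.3, 28.4 and 18.1 CPM, and Kif11, the kinesin that separates spindle poles, 10.1, 17.9 and 13.2 CPM. All 6 were called lower in losartan than in saline. Cenpa, the histone variant of centromeres, was within 1.5-fold in every comparison at 29.1, 40.5 and 29.5 CPM. Aurkb, the passenger complex kinase, had 7.31, 12.4 and 6.84 CPM in losartan, saline and uninjured and was within 1.5-fold where measured. Aurka (the spindle kinase Aurora A), Plk1 (a kinase of mitotic entry and spindle assembly), Bub1b (the checkpoint protein BubR1) and Kif20a (a kinesin of cytokinesis) stayed below 10 CPM in all 3 libraries.

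Set against each other inside the same cells, the 2 lists gave a different order of libraries. Epithelial cells held 0.997 mitotic UMIs per S UMI in losartan (0.981 to 1.01), 1.18 in saline (1.17 to 1.2) and 1.56 in uninjured tissue (1.55 to 1.58). A ratio within the same sum does not depend on library scaling. The order losartan below saline below uninjured held in 13 of 13 processing settings in which all 3 ratios were computed, with ranges of 0.885 to 1.19 in losartan, 1.09 to 1.39 in saline and 1.5 to 1.85 in uninjured. Uninjured epithelium thus had fewer S and more mitotic transcripts for its size than losartan epithelium, while saline epithelium had the most of both.

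The cells behind these sums were a minority. Cells with at least 20 mitotic UMIs numbered 266 in losartan (13.8%), 211 in saline (17.7%) and 747 in uninjured epithelium (7.73%), and they held 87.5%, 92.5% and 84.6% of the mitotic UMIs in losartan, saline and uninjured. The same cells held 54.8% of S UMIs in losartan, 74.3% in saline and 29.7% in uninjured epithelium. They were much deeper in the injured libraries, with median depths of 44365 UMIs in losartan, 79542 in saline and 16824 in uninjured, so cells were also compared at equal depth.

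**Figure D2:**
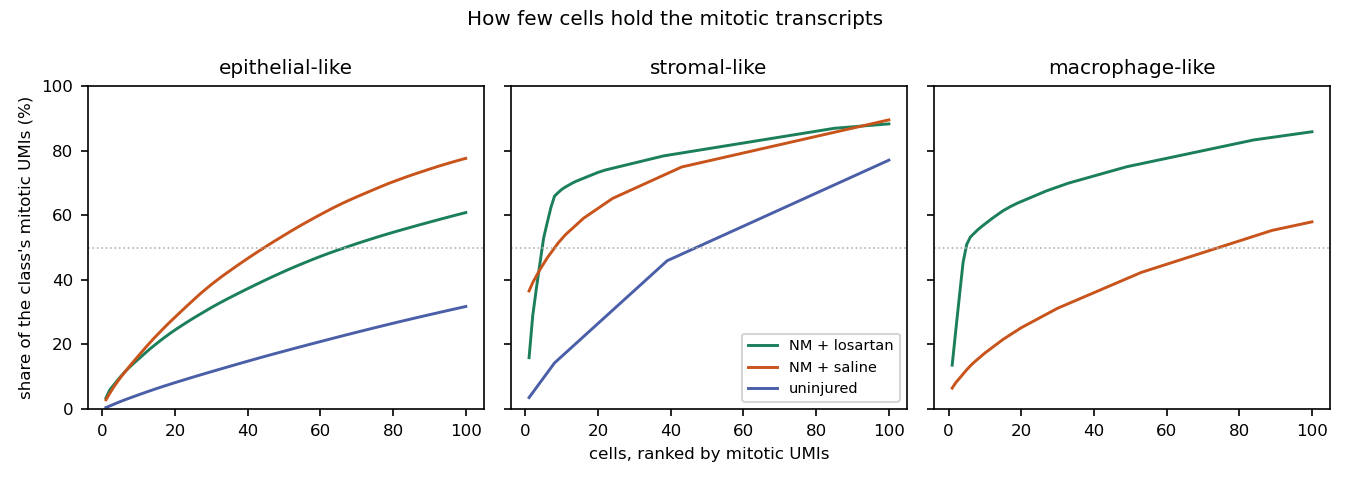
Share of a class's mitotic UMIs (vertical axis, %) held by its highest cells, ranked by mitotic UMIs (horizontal axis), for epithelial-like, stromal-like and macrophage-like cells, 1 line per library. The dotted 50% line is reached at 67 losartan, 45 saline and 192 uninjured epithelial cells, but at 5 losartan macrophages against 75 saline ones.

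To compare cells at equal depth, each was thinned at random to 1500 UMIs, leaving out 9.93% of losartan, 20.4% of saline and 6.37% of uninjured epithelial cells as too shallow. Cells with 2 or more mitotic UMIs then made up 13.4% of losartan (11.8 to 15.1), 22.7% of saline (20.07 to 25.5) and 10.9% of uninjured epithelium (10.3 to 11.6). Cells with 2 or more S UMIs made up 15.7% of losartan (14.0 to 17.5), 22.6% of saline (19.97 to 25.4) and 12.7% of uninjured epithelium (12.0 to 13.4). Without thinning the S shares were 73.9%, 67.7% and 61.5% and the mitotic shares 44.7%, 55.8% and 33.6% in losartan, saline and uninjured. Saline cells led in both lists at equal depth, while without thinning losartan led in the S list.

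Free RNA can give such counts in cells that do not divide. Neutrophil-like cells at the same 1500 UMIs, with full median depths of 2596 UMIs in losartan and 4044 in saline, showed S shares of 2.99% in losartan and 3.04% in saline and mitotic shares of 3.33% in losartan and 1.52% in saline. The injured epithelial shares lay above these. At full depth Kif23 made up 50.3% of the neutrophils' mitotic UMIs in losartan and 25.0% in saline. Mki67 made up 15.2% of them in losartan and 30.4% in saline, at 18.8 CPM and 23.3 CPM. Of the neutrophils' S UMIs, Slbp made up 50.8% in losartan and 53.3% in saline. Pcna made up 24.5% of these S UMIs in losartan and 27.9% in saline. The uninjured library held 1 neutrophil-like cell, so its 179 mural-like or Schwann-like cells, with a median depth of 3347 UMIs, served instead. They showed a mitotic share of 2.79% (0.913 to 6.40), below the epithelial one. Their S share was 12.3% (7.87 to 18.0), and the 12.7% of uninjured epithelium lay within that interval. The S share was 19.1% in mural-like (11.5 to 28.8) and 7.78% in Schwann-like cells (3.18 to 15.4), with overlapping intervals. The S share of uninjured epithelium as a whole was thus not set apart from that of these cells. Within uninjured epithelium the S share ran from 1.36% in cluster 10, 3.59% in cluster 12 and 4.58% in cluster 6 to 18.1% in cluster 0 and 19.8% in cluster 7.

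**Figure D3:**
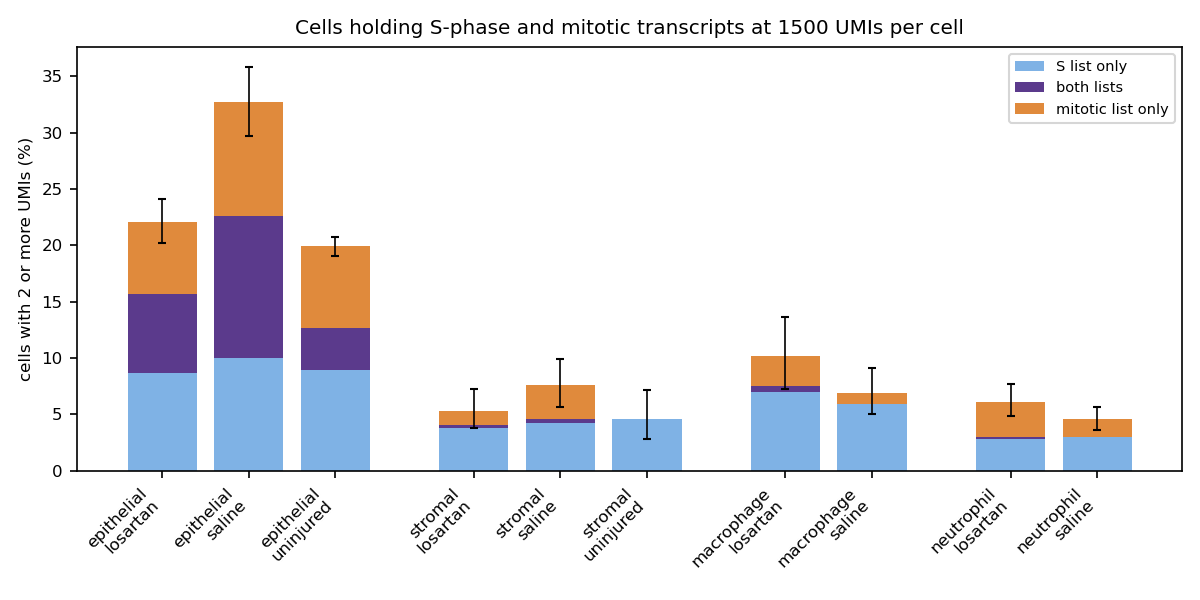
Share of cells with 2 or more UMIs of the S list only, of both lists or of the mitotic list only (stacked bars, %), after thinning to 1500 UMIs, by class and library; error bars are the 95% interval of the whole bar. Cells with both lists make up 6.99% of losartan, 12.6% of saline and 3.67% of uninjured epithelium.

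Injured epithelium held more cells with both lists at once. Cells with 2 or more UMIs of each made up 6.99% of losartan (5.83 to 8.29), 12.6% of saline (10.5 to 14.8) and 3.67% of uninjured epithelium (3.29 to 4.08). Of the cells with 2 or more mitotic UMIs, some also had 2 or more S UMIs. This share was 52.2% in losartan (45.5 to 58.7), 55.3% in saline (48.4 to 62.1) and 33.5% in uninjured tissue (30.6 to 36.6). Uninjured was lowest in all 16 settings computed, while losartan and saline changed places between settings. S transcripts were also more abundant in losartan and saline than in uninjured epithelium, and their part in this share was not tested. If the 2 lists fell into cells independently, 2.10% of losartan, 5.13% of saline and 1.38% of uninjured cells would hold both. The observed shares were 3.32 times this in losartan, 2.45 times in saline and 2.65 times in uninjured. On that scale saline was not above uninjured epithelium. Doublets, which join the transcripts of 2 cells, were removed by simulation. With them kept the shares were 58.3% in losartan, 56.7% in saline and 35.0% in uninjured, and without cells over 100000 UMIs 62.0% in losartan, 59.1% in saline and 33.5% in uninjured.

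The lists were also compared gene by gene. For each member, the cells holding it after thinning were taken and the share of mitotic UMIs among all the other members' UMIs in them was computed. In uninjured epithelium the lists did not overlap: S genes ran from 38.6% for Cdt1 to 69.2% for Tyms, and mitotic genes from 75.8% for Top2a to 91.0% for Ccnb1. From low to high, the order ran through Cdt1, Gins2, Cdc6 and the MCM genes at the low end, then Rrm2 (62.8%), Rrm1 (65.8%) and Tyms at the top of the S list. Top2a and Cdk1 (80.0%) stood at the foot of the mitotic list and Cdc20 (90.9%), Ccnb2 (90.9%) and Ccnb1 at the top. The list medians were 46.6% for S and 86.7% for mitotic genes, 40.1 percentage points apart.

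In injured epithelium the lists overlapped. Losartan S genes ran from 36.7% for Cdc6 to 65.0% for Rrm1 and mitotic genes from 59.0% for Top2a to 80.4% for Plk1, with medians 13.4 points apart. Saline S genes ran from 41.2% for Cdc6 to 65.3% for Rrm1 and mitotic genes from 53.6% for Bub1b to 76.1% for Cenpa, with medians 14.4 points apart. Uninjured had the widest gap in all 16 settings, 2 of which leave the gap as it is by construction, at 24.6 to 42.4 points, against 5.88 to 18.6 in losartan and 3.04 to 14.4 in saline. Another random thinning alone moved the saline gap to 5.26 points, so losartan and saline gaps cannot be ranked. Stromal markers also differed here. Epithelial cells with 3 or more mitotic UMIs held 1012 CPM of them in losartan and 1673 CPM in saline, against 139 CPM in uninjured. Of the 13 markers, 4 in losartan, 2 in saline and 3 in uninjured reached 10 CPM in the whole epithelial sum. Aldh1a3, a member of that list, was among the top genes of epithelial cluster 3. The sum is therefore not read as transcripts of other cells alone, and its part in the overlap was not tested. Ccnb1, for which uninjured cells gave 91.0% (89.6 to 92.2), stood at 76.8% in losartan (69.3 to 83.3) and 73.3% in saline (67.5 to 78.5). Tyms stood at 60.9% in losartan (54.4 to 67.2), 58.3% in saline (52.1 to 64.3) and 69.2% in uninjured (66.7 to 71.6). Rrm1 was nearly level, at 65.0% in losartan (60.6 to 69.3), 65.3% in saline (60.7 to 69.6) and 65.8% in uninjured (63.9 to 67.7).

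**Figure D4:**
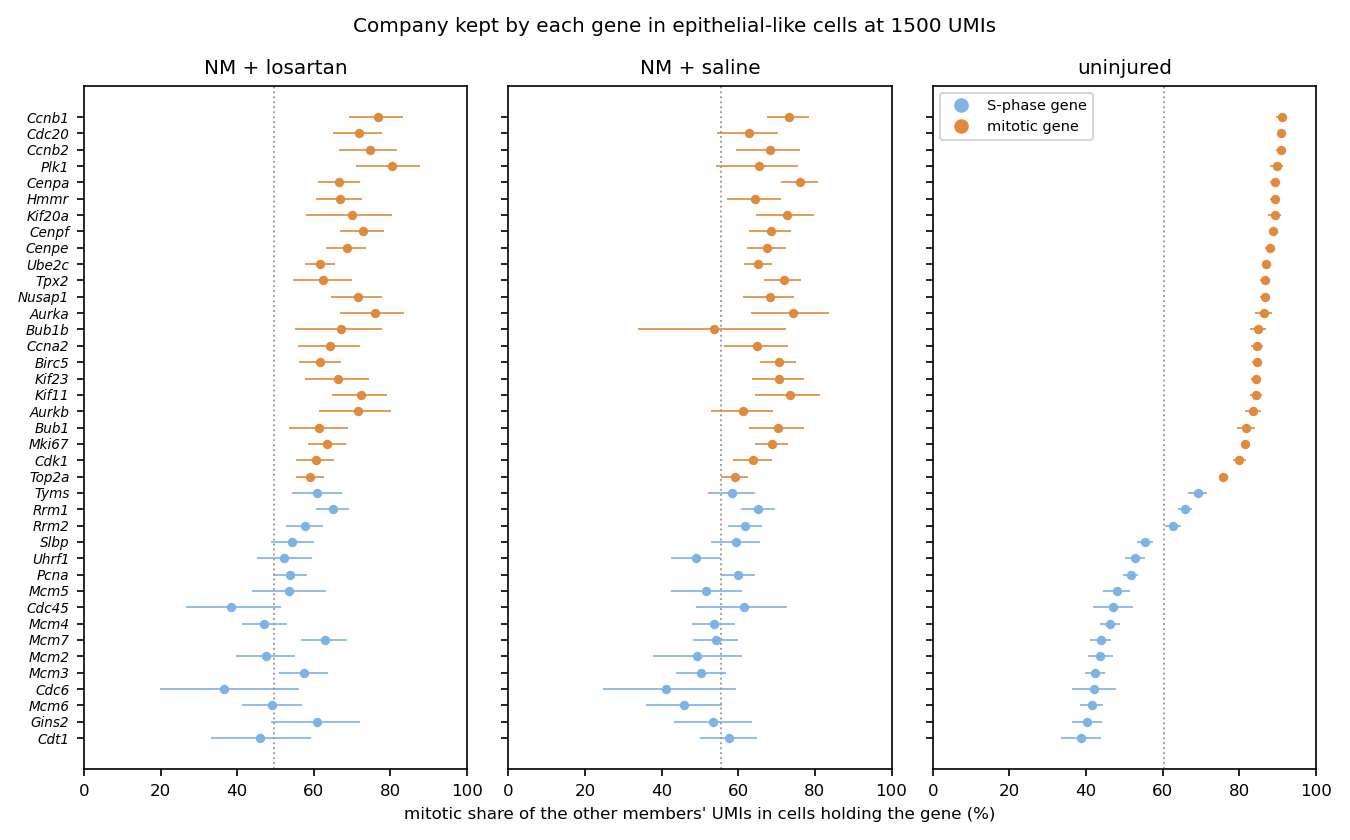
For each gene (rows, ordered by the uninjured values), the mitotic share (%) of the other members' UMIs in epithelial-like cells holding it after thinning to 1500 UMIs, with its 95% counting interval; blue marks S genes, orange mitotic genes, and the dotted line the share over all cells. The lists are apart in uninjured cells, medians 46.6% and 86.7%, and overlap in losartan (53.7% and 67.1%) and saline (53.9% and 68.2%).

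Clusters differed widely in both lists. In uninjured epithelium clusters 0, 2 and 7 held 695, 492 and 708 S CPM and 1209, 913 and 930 mitotic CPM, while cluster 10 held 108 S and 49.7 mitotic CPM. Of the injured clusters, cluster 4 held the most UMIs of both lists, with 750 S and 785 mitotic CPM in losartan and 1069 S and 1254 mitotic CPM in saline. Cluster 3 carried 190 S and 143 mitotic CPM in losartan, against 303 S and 358 mitotic CPM in saline. Cluster 15, of shallow cells, carried 776 S and 1094 mitotic CPM in losartan, against 1305 S and 1863 mitotic CPM in saline. Losartan was lower than saline in both lists within each of these clusters. The ratio of mitotic to S UMIs within cluster 4 was 1.05 in losartan (1.03 to 1.07) and 1.17 in saline (1.15 to 1.19), and within cluster 3 it was 0.754 in losartan (0.724 to 0.786) and 1.18 in saline (1.14 to 1.22). In cluster 15 the intervals overlapped, at 1.41 in losartan (1.23 to 1.61) and 1.43 in saline (1.33 to 1.54).

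**Figure D5:**
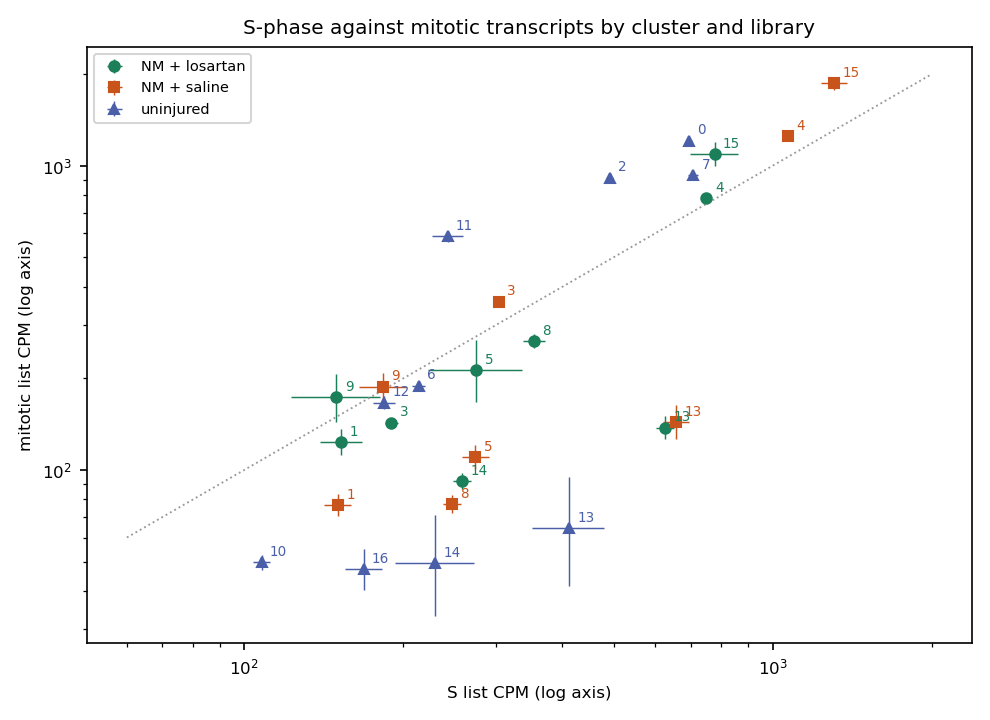
S list CPM (horizontal, log axis) against mitotic list CPM (vertical, log axis), with 95% counting intervals. Points are the epithelial, stromal, macrophage, neutrophil and unnamed clusters with 50 or more cells in a library. Numbers name clusters and the dotted line marks equal levels. Epithelial clusters 0, 2, 4, 7 and 15 lie at the upper right, and unnamed cluster 13 lies far below the line with 626 S CPM in losartan and 138 mitotic CPM.

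Stromal cells held few transcripts of either list. The S sum was 252 CPM in losartan (242 to 261), 197 CPM in saline (179 to 216) and 177 CPM in uninjured stroma (164 to 190), and the mitotic sum 97.2 CPM in losartan (91.6 to 103), 166 CPM in saline (150 to 184) and 47.2 CPM in uninjured stroma (40.8 to 54.3). After thinning, 2 or more mitotic UMIs were found in 11 of 692 losartan cells (1.59%) and 21 of 633 saline cells (3.32%). Uninjured stroma had 0 such cells of 410, where 3 counts of that total would be 0.732%. At least 1 mitotic UMI was found in 59 losartan (8.53%), 79 saline (12.5%) and 31 uninjured cells (7.56%). At 2 or more mitotic UMIs, the losartan share of 1.59% was below the 3.33% of losartan neutrophil-like cells. The saline share had an interval of 2.07 to 5.03, which overlapped that of saline neutrophil-like cells, 1.52% (1.00 to 2.20). Kif23 made up 50.3% of the losartan neutrophils' mitotic UMIs at full depth, and a neutrophil share without it was not computed. Stromal S shares were 4.05% in losartan, 4.58% in saline and 4.63% in uninjured, and these intervals overlapped. Different clusters hold the class, cluster 14 most of losartan, cluster 9 most of saline and cluster 16 most of uninjured cells.

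Among stromal S genes, losartan against saline gave 7 of 10 measured genes higher and 2 lower, where 35.1% of all genes were higher and 17.3% lower. Losartan against uninjured gave 5 of 9 higher and 0 lower (background 16.7% and 21.8%), and saline against uninjured 2 of 5 higher and 2 lower (12.8% and 36%). These counts did not hold at equal depth. With cells thinned to 1500 UMIs, losartan against saline gave 2 higher and losartan against uninjured 0, and the list median of losartan against uninjured was -0.20 thinned and 0.78 unthinned. Pcna was near level, with 48.8 CPM in losartan, 41.7 CPM in saline and 45.03 CPM in uninjured stroma. Slbp had 46.9 CPM in losartan, 79.1 CPM in saline and 49.1 CPM in uninjured stroma and was called higher in saline than in uninjured and lower in losartan than in saline. Rrm1 had 28.9, 8.08 and 19.8 CPM, Mcm4 21.2, 5.96 and 18.3 CPM, and Tyms 18.9, 7.23 and 8.91 CPM in losartan, saline and uninjured stroma. Rrm2 had 10.5, 4.25 and 3.13 CPM in losartan, saline and uninjured stroma and gave the highest losartan-to-uninjured ratio, 3.36-fold. The remaining S genes ran between 0.425 and 16.8 CPM.

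Part of the stromal mitotic values came from single cells. Bub1b reached 71.9 CPM in saline stroma, from 169 UMIs of which 143 lay in 1 cell of 3524 UMIs that held 0 S UMIs, against 1.15 CPM in losartan and 1.2 CPM in uninjured stroma. Without that cell the highest saline cell had 10 mitotic UMIs, and in uninjured stroma no cell had more than 7, with 50% of the mitotic UMIs in 47 cells. Cdt1, of the S list, behaved alike in saline, with 22 of its 36 UMIs in 1 cell and 15.3 CPM, against 5.66 CPM in losartan and 2.17 CPM in uninjured stroma. Cenpf had 2.12 CPM in losartan, 22.1 CPM in saline and 1.45 CPM in uninjured stroma, and Ccnb1 1.41, 12.8 and 1.45 CPM in losartan, saline and uninjured. Cenpa had 6.54, 6.38 and 6.502 CPM, Ube2c 7.51, 3.83 and 4.57 CPM, and Cenpe 3.71, 5.11 and 9.39 CPM in losartan, saline and uninjured stroma, none of them measured. Birc5 had 7.34, 2.98 and 0.482 CPM and Cdk1 7.51, 0.851 and 0.722 CPM in the same libraries. The remaining mitotic genes stayed at or below 5.75 CPM in every library. Top2a had 20.5 CPM in losartan, 6.38 CPM in saline and 3.85 CPM in uninjured stroma, with 53 of the 232 losartan UMIs in 1 cell. Measured mitotic genes were 4 in losartan against saline (1 higher, 3 lower), 3 in saline against uninjured (3 higher) and 1 in losartan against uninjured (higher). Over all genes the shares higher in these comparisons were 35.1%, 12.8% and 16.7%. The shares lower were 17.3%, 36% and 21.8%. Cells with at least 20 mitotic UMIs numbered 8 in losartan, 1 in saline and 0 in uninjured stroma, and Aurkb had 18 UMIs in losartan and 0 in saline and uninjured.

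Macrophage-like cells gave the opposite direction to epithelium, losartan above saline, and much of the mitotic part lay in very few cells. S transcripts summed to 354 CPM in losartan (337 to 371) and 247 CPM in saline macrophages (238 to 257), and mitotic transcripts to 265 CPM in losartan (251 to 281) and 77.4 CPM in saline (72.2 to 82.8). Of 11 measured S genes 7 were higher and 0 lower, and of 8 measured mitotic genes 7 were higher and 0 lower, where 7.62% of all genes were higher and 5.01% lower. The list medians were 0.67 and 1.16, beside 0.08 over all genes. The ratio of mitotic to S UMIs was 0.751 in losartan (0.697 to 0.808) and 0.313 in saline (0.289 to 0.339).

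Top2a led with 29.8 CPM in losartan and 3.36 CPM in saline macrophages, an 8.88-fold difference (6.13 to 13.2) in which 39 of the 142 losartan UMIs came from 1 cell. Birc5 had 22.5 CPM in losartan and 2.24 CPM in saline, and Ube2c 17.6 CPM in losartan and 2.14 CPM in saline. Cenpa was the most abundant mitotic gene at 67.2 CPM in losartan and 26.4 CPM in saline, and Mki67 stayed within 1.5-fold at 21.4 CPM in losartan and 14.4 CPM in saline. Ccnb2 had 13.0 CPM in losartan and 3.36 CPM in saline, and Cdk1 12.0 CPM in losartan and 2.80 CPM in saline. All of these but Mki67, and Tpx2 with 10.7 CPM in losartan and 3.54 CPM in saline, were called higher in losartan. Ccna2 had 21 UMIs in losartan and 0 in saline. In the S list Mcm7 gave the highest ratio, 15.8 CPM in losartan and 5.03 CPM in saline, 3.13-fold (2.18 to 4.52). Cdt1 had 25.8 CPM in losartan and 17.8 CPM in saline. Pcna was level at 93.3 CPM in losartan and 97.8 CPM in saline, as was Slbp at 63.4 CPM in losartan and 59.5 CPM in saline. Mcm4 had 25.0 CPM in losartan and 11.8 CPM in saline, Mcm3 24.4 CPM in losartan and 12.4 CPM in saline, and Rrm1 19.95 CPM in losartan and 10.6 CPM in saline. Mcm7, Mcm4, Mcm3 and Rrm1, with Mcm2, Gins2 and Tyms, were the 7 called higher, and the other 5 S and 15 mitotic genes did not reach 10 CPM.

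In losartan, 6 macrophage-like cells with at least 20 mitotic UMIs held 673 UMIs, or 53.2% of the class's mitotic UMIs, while saline had 1 such cell with 54 UMIs. At equal depth 12 of 374 losartan cells (3.21%) and 6 of 641 saline cells (0.936%) had 2 or more mitotic UMIs. Neither macrophage share exceeded the neutrophil share of its library, 3.33% in losartan and 1.52% in saline. Kif23 made up 50.3% of the losartan neutrophils' mitotic UMIs at full depth and stood at 8.19 CPM in losartan macrophages. A neutrophil share without Kif23 was not computed, so these shares are no common background. Many of the mitotic transcripts of losartan macrophages lay in cells poor in macrophage markers. A set of 37 losartan cells (9.34%) with under 5000 CPM of the macrophage marker list, a limit set after the values were seen, held 47.9% of the class's mitotic and 28.4% of its S UMIs and 5 of the 6 high cells, while 45 saline cells below the same limit held 3.01% of mitotic UMIs. In these losartan cells C1qa stood at 2.12 CPM and Lyz2 at 231 CPM, against 1448 and 6340 CPM in the other losartan cells. Cd68 at 444 CPM and Csf1r at 176 CPM were nearer to the others' 650 and 284 CPM. The protease gene Ctsk, chosen after its value was seen, was found in 8 of the 37 cells. Its level there was 3370 CPM, against 73.4 CPM in the saline cells below the limit. Without the low-marker cells of both libraries the mitotic sum was 154 CPM in losartan and 77.0 CPM in saline. The S sum was then 281 CPM in losartan and 245 CPM in saline, and 2 S and 2 mitotic genes were called higher. The S share of cells at equal depth was 7.49% in losartan and 5.93% in saline. Without the low-marker cells the ratio was 0.546 in losartan and 0.314 in saline, and losartan stayed above saline in 13 of 13 settings, at 0.499 to 0.856 against 0.286 to 0.402.

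Other genes of the cycle were counted in the same way. In epithelium the shares of all measured genes were 19.8% higher and 17.5% lower for saline against uninjured, and 2.16% higher and 5.67% lower for losartan against saline. Of 21 measured genes of a further replication list, 11 were higher and 0 lower in saline than in uninjured, and 0 higher and 4 lower in losartan than in saline. Of 30 measured genes of a further mitosis list, 12 (40%) were higher and 1 lower in saline than in uninjured, against 3 of 19 (15.8%) higher among the mitotic members, and 0 were higher and 11 lower in losartan than in saline. Dbf4, the activator of the origin-firing kinase Cdc7, had 19.8 CPM in losartan, 25.4 CPM in saline and 9.60 CPM in uninjured epithelium, and Smc2, a condensin subunit, 63.4, 101.1 and 35.7 CPM in losartan, saline and uninjured. Pttg1, or securin, which keeps the protease separase inactive until anaphase, was called lower in saline than in uninjured epithelium. It had 58.2 CPM in losartan, 50.3 CPM in saline and 85.8 CPM in uninjured epithelium. Its level in losartan was above that in saline, within 1.5-fold, whereas every member was lower in losartan. Among 19 measured regulators, 8 were higher and 1 lower in saline than in uninjured: the repressor E2f8 had 9.59, 19.1 and 4.91 CPM and its relative E2f7 7.60, 11.7 and 30.6 CPM in losartan, saline and uninjured. Of 15 measured brakes of the cycle 4 (26.7%) were higher and 6 (40%) lower in saline than in uninjured, and 0 of 14 were called in losartan against saline. Ccng1, a p53 target, had 182 CPM in losartan, 188 CPM in saline and 36.0 CPM in uninjured epithelium, and Btg2, an antiproliferative gene, 211, 226 and 675 CPM. In macrophages 6 of 16 further replication genes and 2 of 12 further mitosis genes were higher in losartan than in saline, with 0 replication genes and 1 mitosis gene lower, where 7.62% of all genes were higher and 5.01% lower.

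Some members have exons that overlap a neighbour or have pseudogenes, and whether this affects their counts was not tested. Exons of Mcm7, Gins2, Cdc45, Slbp, Ube2c, Ccna2, Plk1, Nusap1, Kif20a and Cdc20 overlap a gene on the opposite strand in the GENCODE annotation of GRCm38, and those of Mcm7 and Top2a a small RNA gene on the same strand. Pcna, Tyms, Ccnb1 and Ccnb2 have annotated pseudogenes.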

How the data were processed

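Droplet single-cell RNA sequencing (10x Genomics) was done on 1 library per group. The authors deposited filtered matrices of UMI counts per gene and cell, whole numbers with no normalization, made with Cell Ranger, whose version the file headers give as 8.0.0, and on GRCm38 as the submitters' processing notes have it. The annotation release, whether intronic reads were counted and any earlier doublet removal are not given in the sources used here. Barcodes numbered 5887 in losartan, 6814 in saline and 13270 in uninjured.

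Cells with at least 500 genes and at most 20% mitochondrial UMIs were kept. Doublets were scored against 2 simulated doublets per cell, and the top cells, at 0.8% per 1000 barcodes, were removed (243 in losartan, 334 in saline, 1334 in uninjured). Cell cycle genes were not left out of this scoring. Cells with 2 or more mitotic UMIs made up 39.5% of removed cells in losartan, 22.8% in saline and 52.2% in uninjured. Among kept cells they made up 27.3% in losartan, 21.1% in saline and 30.9% in uninjured. Counts scaled to 10000 per cell, 2000 variable genes without cell cycle genes, 30 principal components and 20 neighbours gave Leiden clusters at resolution 0.8, with no batch correction. Clusters were named from marker lists, by a rule set after the clusters were seen. Raw UMIs were then summed per class and library and given as CPM. Ratios are of CPM, and calls use log2 of CPM plus 5. Genes under 10 CPM in both libraries of a comparison were not called. Intervals are Poisson for levels, binomial for ratios and Clopper-Pearson for shares. The scripts were tested on simulated data.

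The members, the other gene lists and the alternatives were chosen with earlier results of these data known. All members are accounted for, and values in every library are given per class for the 5 S and 8 mitotic members with the most UMIs and for the highest and lowest ratio of each list in each comparison. From each other list, genes among the 2 highest and 2 lowest ratios of a comparison may be named. The work used Python 3.11.15, NumPy 2.4.6, SciPy 1.17.1, pandas 2.3.3, scikit-learn 1.9.0, scanpy 1.11.5, leidenalg 0.10.2, igraph 0.11.9 and matplotlib 3.10.9.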

Additional observations from a re-analysis of the deposited data

Results flagged for a closer look

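In losartan against saline, epithelium and macrophage-like cells had list medians of opposite sign. The S list had a median log2 ratio of -0.43 in epithelium and 0.67 in macrophage-like cells, and the mitotic list one of -0.59 in epithelium and 1.16 in macrophage-like cells. The difference between the classes was not tested, since each group was 1 library.

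Signals also appeared in cells outside the comparisons. Kif23 reached 62.2 CPM in losartan and 19.2 CPM in saline neutrophil-like cells, where it made up 50.3% of the mitotic list's UMIs in losartan and 25.0% in saline. Mki67 made up 15.2% of that list's UMIs in losartan and 30.4% in saline neutrophil-like cells. Unnamed cluster 13 held 626 S CPM in losartan and 657 S CPM in saline, against 412 CPM in uninjured, beside 138 mitotic CPM in losartan, 144 in saline and 64.3 in uninjured.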

How the results depend on the processing

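No paired analysis was possible because each group was 1 library. Of 459 recomputed main values, 381 stayed within the interval of the main value, 76 moved beyond it and 2 reversed. For list medians this interval was taken over the list's genes. It had no limits for the 5 measured stromal S genes of saline against uninjured. Reversal was not scored for mitotic-to-S ratios or for shares of mitotic cells with S UMIs. Of 441 further values, counts of genes and gaps between list medians, 374 stayed within 1.5 times and 67 moved. The causes of the moves were not tested, unless the alternative's own construction gives them. With doublets kept, mitotic-to-S ratios were 0.97 in losartan, 1.25 in saline and 1.61 in uninjured epithelium and 0.342 in uninjured stroma. With a minimum of 200 genes uninjured epithelium had 1.604, and with cell cycle genes among the variable genes 1.70, where the saline-to-uninjured ratio of epithelial mitotic shares was 1.76. At resolution 0.4 macrophage ratios were 0.840 in losartan and 0.402 in saline, and 30.6% of uninjured mitotic epithelial cells had S UMIs. At resolution 1.2 the losartan macrophage ratio was 0.579, the saline epithelial share with S UMIs 62.6% and the losartan-to-saline ratio of macrophage mitotic shares 12.6.

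Without cells over 100000 UMIs, the losartan-to-saline epithelial medians were -0.25 for S and -0.41 for mitotic genes, the saline ratio 1.11 and the losartan share with S UMIs 62.0%. The stromal losartan-to-uninjured S median was 1.01 with a pseudocount of 1, 0.10 with per-cell means and 0.10 without the 10 top cells, and it reversed to -0.20 when cells were thinned. Thinning to 1500 UMIs gave epithelial losartan-to-saline medians of -0.51 for S and -0.75 for mitotic genes, and ratios of 1.25 in saline and 1.52 in uninjured epithelium, 0.585 in losartan stroma and 0.620 in losartan macrophages. Without the lead member of each list uninjured epithelium had 1.66 and saline macrophages 0.341. Without the 10 cells with the most member UMIs, ratios were 0.885 in losartan, 1.09 in saline and 1.502 in uninjured epithelium, 0.194 in losartan and 0.668 in saline stroma, and 0.499 in losartan and 0.286 in saline macrophages.

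The share of mitotic epithelial cells with S UMIs was 34.3%, 41.9% and 24.3% in losartan, saline and uninjured at 1000 UMIs, 78.3%, 78.3% and 43.8% at 3000 UMIs, and 93.6%, 88.3% and 75.1% without thinning. It was 69.5%, 74.5% and 44.8% at a minimum of 1 UMI, 38.0%, 37.9% and 23.9% at 3 UMIs, and 40.3%, 47.3% and 29.6% without members present in neutrophils. Without thinning, ratios of epithelial shares for saline against uninjured were 1.10 for S and 1.66 for mitotic, and for losartan against saline 1.09 for S, against 0.695 with thinning and so reversed, and 0.801 for mitotic. The stromal S ratio was then 0.227 for saline against uninjured and 4.77 for losartan against saline, with 1.89 for mitotic shares. The stromal losartan-to-saline S ratio was 1.70 at 3000 UMIs and 1.83 without members present in neutrophils. At 1 UMI epithelial saline-to-uninjured ratios were 1.43 for S and 1.59 for mitotic shares. At 3 UMIs stromal S ratios were 3.24 for saline against uninjured and 0.457 for losartan against saline, and the macrophage S ratio was 18.9. Alternatives added after seeing the data gave 1.73 for epithelial mitotic shares in saline against uninjured without the shallow cluster and 0.546 for losartan macrophages without low-marker cells. Without members present in neutrophils ratios were 1.19 in losartan, 1.39 in saline and 1.85 in uninjured epithelium, 0.530, 2.03 and 0.439 in the stroma of those libraries, and 0.856 in losartan and 0.363 in saline macrophages.

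Counts of called genes also moved. In epithelium, losartan-to-saline mitotic genes lower numbered 10, but 2 without deep cells and 6 with median-of-ratios scaling; S genes lower numbered 1, and 0 to 5 in the alternatives. Saline-to-uninjured mitotic genes higher numbered 3, and up to 7 with a pseudocount of 1, thinning or per-cell means, and those lower numbered 2, and 1 to 5. In macrophages S genes higher numbered 7, but 2 at resolution 1.2, thinned or without low-marker cells, 1 with per-cell means and 0 without 10 cells. Mitotic genes higher there numbered 7, but 2 at resolution 1.2, with per-cell means or without low-marker cells, 3 thinned, 1 without 10 cells and 16 with no minimum level. Stromal S genes higher in losartan numbered 7 against saline, and 2 thinned, and 5 against uninjured, and 0 thinned. Stromal mitotic counts moved between 0 and 6. At equal depth 11 losartan and 21 saline stromal cells, and 12 losartan and 6 saline macrophages, held 2 or more mitotic UMIs, so ratios of their shares rest on few cells.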

Other observations

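Cells outside the 3 classes compared also held members. Dendritic-like cells carried 317 S and 382 mitotic CPM in losartan, against 213 S and 216 mitotic CPM in saline, a ratio of 1.204 mitotic UMIs per S UMI in losartan and 1.01 in saline, from 93 losartan and 97 saline cells. Cenpa alone stood at 146 CPM in losartan and 157 CPM in saline dendritic-like cells. Unnamed cluster 11, with 865 uninjured cells, held 243 S and 587 mitotic CPM, a ratio of 2.42. Its best marker list was basal and general epithelium, with 22 epithelial markers detected. The naming rule left it unnamed, so its cells are not in the main epithelial values. Unnamed cluster 5, mostly of saline cells, held 275 S and 213 mitotic CPM in losartan, against 274 S and 111 mitotic CPM in saline.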
